A study of Mus musculus with 10 samples.

Results

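The AP-1 and EGR immediate early genes were followed in mouse BMEL cells after a knockdown reagent for miR-30a. The group holds 4 FOS family genes (Fos, Fosb, Fosl1, Fosl2), 3 JUN family genes (Jun, Junb, Jund), the zinc finger genes Egr1 and Egr2, and Ier2. Members were the probe sets that the platform annotation assigns to exactly 1 of these 10 symbols, which gave 15 probe sets for 10 genes out of 34945 probe sets for 18193 genes. The brightest probe set by mean over the 10 arrays stood for its gene. BMEL cells are a bipotential mouse embryonic liver line that can take on hepatocyte or bile duct features. In the miR-30a antisense group (5 arrays) the cells received a locked nucleic acid (LNA) oligonucleotide against miR-30a, and in the scrambled group (5 arrays) an LNA oligonucleotide of scrambled sequence. Both groups were transfected with Oligofectamine, and no untransfected cells were analysed here. The labels name no dose, no time after transfection and no source of the replicates, so each p-value speaks of the spread among these arrays, part of which may be technical.

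AP-1 is a dimer of basic leucine zipper proteins, usually of a FOS family protein with a JUN family protein, that binds a short palindromic DNA element. Most of its subunit genes, together with Egr1, Egr2 and Ier2, are immediate early genes: growth factors, stress and cell attachment activate kinases such as ERK and JNK, which switch these genes on through transcription factors that are already present, without new protein synthesis. Fos, Fosb and Egr1 usually give short pulses of transcript, whereas Fosl1, which is itself switched on by AP-1, stays high under lasting ERK activity. In liver, Jun and Fos are known for their early induction after partial hepatectomy, and Jun is needed for hepatocyte survival and growth in the embryo.

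The oligonucleotide was directed at miR-30a, whose guide strand is printed here with 2 family members because they share the seed through which a microRNA recognises its targets. Capitals mark the seed, bases 2 to 8, and the sequences are those of RefSeq on GRCm38.p6.
miR-30a-5p (chr1:23272274-23272295, plus strand): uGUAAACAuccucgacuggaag
miR-30c-5p (chr1:23291714-23291736, plus strand): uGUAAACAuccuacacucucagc
miR-30e-5p (chr4:120772660-120772681, minus strand): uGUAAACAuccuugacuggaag
All of these carry the seed GUAAACA, and miR-30c-5p, shown at its chromosome 1 locus, is also encoded on chromosome 4. The deposited arrays do not measure the microRNAs themselves.

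The deposited log2 values had array medians between 5.21 and 5.24. Of all genes, 12633 had a brightest probe set at or above 4.559, the level under which 40% of probe sets fall, and were tested with limma. Without a replicate block 193 of them (1.53%) passed an adjusted p of 0.05, 146 higher (1.16%) and 47 lower (0.372%) in antisense arrays. With the replicate number as a block 385 passed (3.05%), 253 of them higher (2%) and 132 lower (1.04%). The replicate numbers were treated as pairing the arrays on the values alone, and what a number marks is not given in the labels. Same-numbered arrays deviated together with correlations of 0.112 to 0.377, but some arrays of unlike number were as close (antisense 3 with scrambled 1, 0.231). Counts of pairs and calls with the block therefore rest on a pairing that the values bear out only in part. All 9 epithelial and hepatoblast markers lay above the filter, with Krt8 at 13.8, Cdh1 at 11.2 and Hnf4a at 10.7, while Alb, at 4.71, was close to it. Of the blood and macrophage markers Ptprc and Adgre1 lay under the filter and Cd68 rose by 0.39 (limma adjusted p = 0.0176). The summed log2 level of the 4 tested blood and macrophage markers, of 7 listed, was 21.5 to 22.02 in antisense arrays and 21.0 to 21.8 in scrambled arrays. None of the 5 tested mesenchymal and stellate markers passed (sums of 25.3 to 26.4 in antisense and 25.6 to 25.9 in scrambled arrays). None of the 3 tested endothelial markers passed either (19.2 to 20.01 in antisense and 19.4 to 19.97 in scrambled arrays), and Pecam1 and Cdh5 lay under the filter. Flt1 (8.22) was brighter than Sox9 (7.27), and Csf1r (6.44) and Kdr (6.09) were close to Afp (6.38) and Epcam (6.33). The other tested non-epithelial markers lay at 5.66 (Cd68) or lower. Level alone thus did not set the marker lists cleanly apart. The part of such cells in the results was not tested, and fewer cells of a type cannot be told apart from less RNA per cell.

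Of the 10 members 8 were tested, and Fosb and Egr2 lay under the filter level. None of the 8 passed the test without the block. Fosl1, Egr1, Junb and Fos had an unadjusted limma p under 0.05, 4 of 8 against 12.9% of all genes. With the replicate block 3 of the 8 rose, Fosl1, Junb and Egr1, in a fit that called 3.05% of all genes (2% of all genes as higher). When a pair was left out of that fit, 2 members passed without pair 1, 1 without pair 3 and 0 without pair 2, 4 or 5. An unadjusted p under 0.05 was reached by 5 of 8 members with the block, against 17.2% of all genes. In the fit of all 34945 probe sets none of the 15 passed, without the block (0.335% of all probe sets called) or with it (0.512%). Of the 8 changes 6 were above 0, as were 55.1% of those of all genes, and the median change of the 8 was 0.10 on the log2 scale against 0.01 over all genes. None of the 8 had groups free of overlap, which 3.92% of all genes had. The antisense array was the higher of its pair in 5 of 5 pairs for 4 members (Fos, Fosl1, Junb, Egr1; 10.6% of all genes) and the lower in 5 of 5 pairs for 1 member (Jund; 6.67% of all genes). The largest change was 0.24, a 1.18-fold difference.

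**Figure D1:**
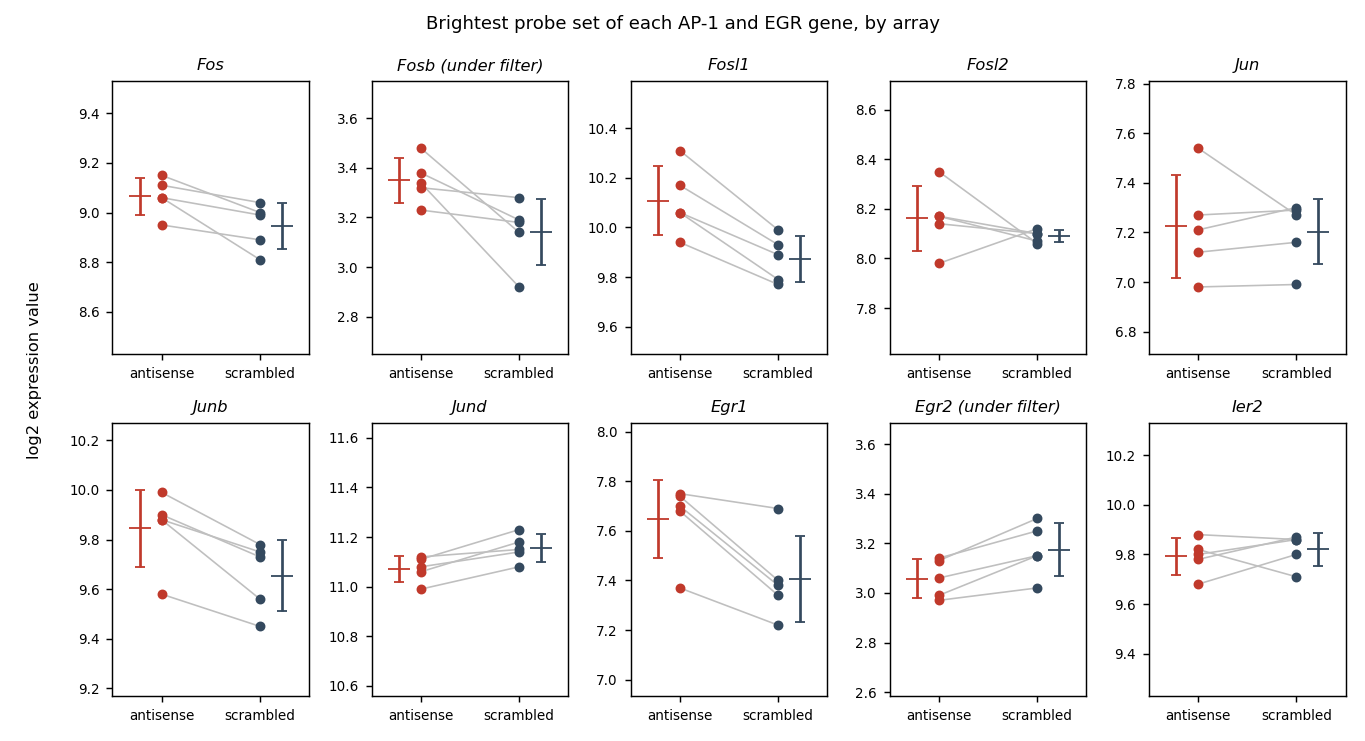
Log2 expression value of the brightest probe set of each of the 10 genes in miR-30a antisense arrays (red, left) and scrambled arrays (dark, right). Points are arrays, grey lines join arrays of the same replicate number, and the bars beside them give the mean and SD of 5 arrays. Every panel spans the same range of 1.1 log2 units; all grey lines fall from antisense to scrambled for Fos, Fosb, Fosl1, Junb and Egr1, and all rise for Jund and Egr2.

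Fosl1 encodes FRA1, a FOS family subunit without the strong activation domain of FOS. Its brightest probe set read 9.94, 10.31, 10.06, 10.17 and 10.06 in antisense replicates 1 to 5, against 9.77, 9.99, 9.89, 9.93 and 9.79 in scrambled replicates 1 to 5. The antisense array was higher in each pair, but the lowest antisense array lay under the highest scrambled array, so the groups overlapped. The means were 10.1 ± 0.14 in antisense arrays and 9.87 ± 0.096 in scrambled arrays (SD, n = 5 each), a 1.18-fold difference (log2 change 0.23, SE 0.067, 95% interval 0.088 to 0.380, limma adjusted p = 0.120). With the replicate block the SE was 0.037 and Fosl1 rose (adjusted p = 0.0173).

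That blocked call was not stable to leaving out a pair: Fosl1 passed without pair 1 (adjusted p = 0.0402) and without pair 3 (0.0440), and missed the threshold without pair 2 (0.0639), pair 4 (0.0593) or pair 5 (0.0684). The second Fosl1 probe set read 7.86, 8.16, 7.85, 7.87 and 7.84 in antisense arrays and 7.29, 7.84, 7.74, 7.79 and 7.61 in scrambled arrays. It had the same direction in 5 of 5 pairs and a change of 0.26 (SE 0.098), and its limma p adjusted over all probe sets was 0.377, or 0.188 once the block was added. The Fosl1 probe sets had changes of like size, and antisense replicate 2 was the highest array for each.

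Fos encodes the founding subunit of AP-1 and is the textbook serum-response gene. It read 9.06, 8.95, 9.06, 9.15 and 9.11 in antisense arrays, against 8.99, 8.89, 8.81, 9.0 and 9.04 in scrambled arrays. Each antisense array lay above its scrambled partner, and the groups overlapped between 8.95 and 9.04. The change was 0.12 (SE 0.052, 95% interval 0.0078 to 0.234), and its limma adjusted p was 0.345, or 0.164 once the block was added.

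Fosl2, which encodes FRA2, read 7.98, 8.35, 8.17, 8.14 and 8.17 in antisense arrays and 8.12, 8.06, 8.10, 8.10 and 8.07 in scrambled arrays. The scrambled arrays lay close together (SD 0.023), and the antisense arrays reached to both sides of them (SD 0.13). Its change of 0.07 (SE 0.056, adjusted p = 0.673) was 0.02 without antisense replicate 2, and the second probe set had a change of 0.03.

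Fosb, an inducible FOS family gene, lay under the filter level, at 3.23, 3.34, 3.38, 3.48 and 3.32 in antisense arrays and 3.18, 2.92, 3.19, 3.14 and 3.28 in scrambled arrays. In the fit of all probe sets the Fosb change was 0.21 (SE 0.068, limma adjusted p = 0.287, and 0.243 with the block).

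Junb encodes a JUN family subunit that often restrains the activity of JUN. Its brightest probe set read 9.99, 9.88, 9.90, 9.58 and 9.88 in antisense arrays, against 9.78, 9.75, 9.73, 9.45 and 9.56 in scrambled arrays. The antisense array was higher in each pair, and replicate 4 was the lowest array of both groups. The means were 9.85 ± 0.16 in antisense arrays and 9.65 ± 0.14 in scrambled arrays (SD, n = 5 each), a 1.14-fold difference (log2 change 0.19, SE 0.081, 95% interval 0.017 to 0.368, limma adjusted p = 0.329). With the replicate block the SE was 0.040 and Junb rose (adjusted p = 0.0436), a call lost without any 1 of the 5 pairs (adjusted p from 0.0859 to 0.121).

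Jun encodes the main partner of FOS and can also act as a homodimer. Its brightest probe set read 6.98, 7.54, 7.12, 7.27 and 7.21 in antisense arrays, against 6.99, 7.27, 7.16, 7.29 and 7.30 in scrambled arrays. The antisense array was the lower of the pair in 4 of 5 pairs, and antisense replicate 2 was the highest of all 10. The change of 0.02 (SE 0.093, 95% interval -0.179 to 0.223, limma adjusted p = 0.960) became -0.058 without that array and -0.03 without scrambled replicate 1, and the second Jun probe set had a change of -0.08 (SE 0.100). The sign of the Jun difference varied with single arrays and with the probe set.

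Jund encodes the JUN family member with the steadiest expression, which is less dependent on stimulation. Its brightest probe set read 11.11, 11.06, 11.08, 10.99 and 11.12 in antisense arrays, against 11.23, 11.18, 11.14, 11.08 and 11.15 in scrambled arrays. It was the tested member whose antisense array was lower in all 5 pairs, by a small amount. The change was -0.08 (SE 0.041, 95% interval -0.171 to 0.0068, or -0.158 to -0.0056 with the block), and its limma adjusted p was 0.436, or 0.257 once the block was added. Its second probe set lay under the filter at 4.13 and had a change of 0.03.

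Egr1 encodes a zinc finger activator that binds GC-rich DNA and is switched on by ERK through serum response elements. Its brightest probe set read 7.75, 7.37, 7.74, 7.70 and 7.68 in antisense arrays, against 7.69, 7.22, 7.40, 7.38 and 7.34 in scrambled arrays. Antisense replicate 2 stood below the other antisense arrays and scrambled replicate 1 above the other scrambled arrays, and the groups overlapped. The means were 7.65 ± 0.16 in antisense arrays and 7.41 ± 0.17 in scrambled arrays (SD, n = 5 each), a 1.18-fold difference (log2 change 0.24, SE 0.089, 95% interval 0.049 to 0.435, limma adjusted p = 0.253). With the replicate block the SE was 0.051 and Egr1 rose (adjusted p = 0.0481). That call held without pair 1 (0.0402) and was lost without any 1 of the other pairs (adjusted p from 0.0908 to 0.148).

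Egr1 was also the member that passed when limma weighted the arrays by their quality (log2 change 0.30, adjusted p = 0.0460, in a fit that called 2.72% of all genes, 2.15% higher and 0.578% lower). Without antisense replicate 2 its change was 0.31 (adjusted p = 0.0796), and without scrambled replicate 1 it was 0.31 (adjusted p = 0.0868).

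Egr2, known from hindbrain and Schwann cell development, was under the filter level with both probe sets. The brighter one read 3.06, 3.13, 2.97, 2.99 and 3.14 in antisense arrays and 3.15, 3.30, 3.02, 3.15 and 3.25 in scrambled arrays. The brighter probe set differed by -0.12 (SE 0.059, limma adjusted p = 0.568, and 0.300 with the block, where the 95% interval was -0.212 to -0.022), at the low end of the scale. The other Egr2 probe set averaged 2.60 over the 10 arrays and had a change of -0.01.

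Ier2 encodes a small nuclear protein induced with Fos and Egr1 by serum. It read 9.80, 9.78, 9.88, 9.68 and 9.82 in antisense arrays, against 9.86, 9.87, 9.86, 9.80 and 9.71 in scrambled arrays. The groups covered nearly the same range. The change was -0.03 (SE 0.047, limma adjusted p = 0.887) with a 95% interval of -0.129 to 0.0759.

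**Figure D2:**
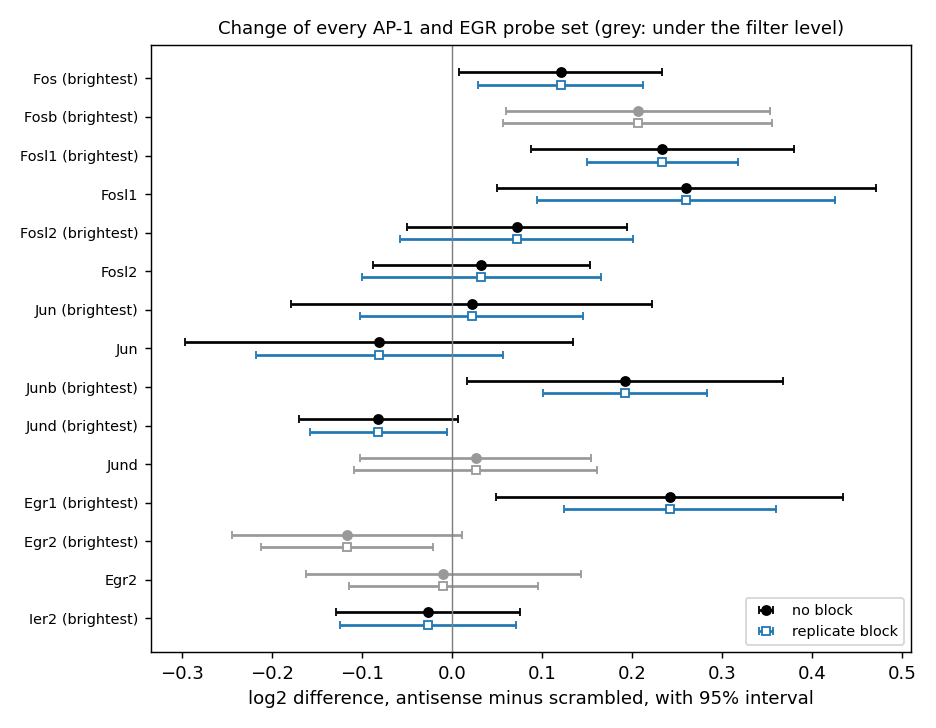
Log2 difference, antisense minus scrambled, of all 15 probe sets, with 95% intervals from the fit without a block (filled circles) and with the replicate block (open squares); grey marks probe sets under the filter level. The intervals of Fos, Fosb, Fosl1, Junb and Egr1 lie above 0 in both fits, and those of Fosl2, Jun and Ier2 span 0. Those of the brightest Jund and Egr2 probe sets span 0 without the block and lie below 0 with it. The intervals are not adjusted for the number of genes: 12.9% of all tested genes had an unadjusted limma p under 0.05 without the block and 17.2% with it. Second probe sets and those under the filter are shown from the fit of all probe sets.

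Across arrays of 1 group the members did not share a single pattern. Antisense replicate 2 was the highest antisense array for Fosl1, Fosl2 and Jun and the lowest for Fos and Egr1, and replicate 4 was the lowest array of both groups for Junb and Jund. After each group's mean was taken out, the 5 other tested genes most like the mean of the 8 members over the 10 arrays were Pdxp (Pearson r = 0.952, Spearman rho = 0.964), Mapk12 (0.942 and 0.879), Fastk (0.936 and 0.903), Atf6 (0.931 and 0.939) and Tmtc3 (0.919 and 0.903). They were picked as the highest among all other tested genes over only 10 arrays, so values this high can come from the picking, and they are given as a description. Within the members, Pearson r ran from -0.878 (Jun with Egr1) to 0.869 (Junb with Jund). Likeness to their mean is therefore not likeness to each member. None of the 5 passed the test between the groups (limma adjusted p from 0.646 to 0.945).

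Promoter sequence is shown for Fos, Junb and Jun, whose subunits pair in AP-1 and whose changes differed in size. Each line gives the 250 bases before the RefSeq start on GRCm38.p6, with capitals for the core of the cAMP response element (TGACG) or, in Jun, for the AP-1 variant known from the Jun promoter (TGACATCA).
Fos (chr12:85473640-85473889, plus strand): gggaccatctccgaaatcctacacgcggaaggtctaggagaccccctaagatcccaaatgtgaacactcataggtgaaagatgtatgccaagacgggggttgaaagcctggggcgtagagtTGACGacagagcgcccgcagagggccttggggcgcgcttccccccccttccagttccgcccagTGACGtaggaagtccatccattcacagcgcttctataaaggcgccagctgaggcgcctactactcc
Junb (chr8:84978749-84978998, minus strand): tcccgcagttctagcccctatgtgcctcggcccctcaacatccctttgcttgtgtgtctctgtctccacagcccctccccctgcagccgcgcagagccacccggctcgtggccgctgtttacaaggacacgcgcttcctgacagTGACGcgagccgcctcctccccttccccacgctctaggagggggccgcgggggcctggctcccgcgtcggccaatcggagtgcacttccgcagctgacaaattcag
Jun (chr4:95052223-95052472, minus strand): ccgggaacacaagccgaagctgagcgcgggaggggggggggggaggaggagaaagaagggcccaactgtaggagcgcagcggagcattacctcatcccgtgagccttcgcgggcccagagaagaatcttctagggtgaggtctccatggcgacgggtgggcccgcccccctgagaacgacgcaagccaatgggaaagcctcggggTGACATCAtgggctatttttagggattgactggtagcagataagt
The Fos window held TGACG 2 times, from 129 to 125 and from 66 to 62 bases before the start, and the Junb window once, from 106 to 102 bases before it. The Jun window held TGACATCA from 45 to 38 bases before the start.

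Windows were used for 7 of the members: 1 each for Fos, Fosb, Fosl2, Jun, Junb and Jund, and 5 for Egr2, most of which overlap, and none was used for Fosl1, Egr1 and Ier2. Both strands were searched. TGACG was found in 6 of these 11 windows, those of 4 of the 7 genes (Fos, Fosb, Junb and Egr2), and in 17.8% of 32851 windows of the same length. Overlapping Egr2 windows held the same TGACG sites, so the window count holds these sites more than once and was not compared with the share by a test. The variant TGACATCA was found in 1 window (2.93% of all windows). The canonical AP-1 site TGANTCA was found in 0 of the 11 (6.75% of all) and the EGR site GCGNGGGCG in 2, those of Fosb and Fosl2 (4.70% of all). The CArG box, the element bound by serum response factor, was found in 4 windows, all of Egr2 (1.47% of all), and the overlapping windows among them held the same box. Only the 250 bases before each start were searched, and Egr1 had no window. The absence of a match, as for the CArG box in Fos, therefore says nothing of sequence farther upstream. The capitals in the printed windows do not overlap, and each match is a description of the letters, not of binding.

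Lists of related genes were read against the shares of all genes called, 1.53% without and 3.05% with the block. Few or no calls are therefore the background for lists of this size, and no difference between lists was tested. The lists were chosen with earlier results of these data known, so their counts are not independent evidence. Among other AP-1 dimer partners, basic leucine zipper genes such as the ATF, BATF and MAF genes, 0 of 10 tested passed without the block and 0 with it, and 1 (Maf) had an unadjusted limma p under 0.05, as had 12.9% of all genes. The median change was 0.01. Maf was at -0.17 (SE 0.068, adjusted p = 0.289), Mafk, a small MAF gene, at 0.11 (adjusted p = 0.464) and Atf7 at 0.09 (adjusted p = 0.699). Leaving out antisense replicate 2 took Mafk to 0.057, and leaving out antisense replicate 3 took Atf7 to 0.045. The other Atf7 probe set differed by -0.06, so the sign for Atf7 varied with the probe set.

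Upstream regulators, the kinases, ternary complex factors and cofactors that act on these genes, gave 0 calls among 20 tested, without or with the block. Their median change was 0.00329, and 10 of 20 were above 0. Rps6ka5, which encodes the kinase MSK1, had the lowest p of the list and read 5.89, 5.49, 5.82, 5.54 and 5.68 in antisense arrays, against 6.42, 5.92, 5.90, 6.22 and 5.83 in scrambled arrays. The groups overlapped between 5.83 and 5.89, and its change of -0.37 (SE 0.112) missed the threshold without the block (limma adjusted p = 0.143) and with it (0.0589). The other Rps6ka5 probe sets lay under the filter and were at -0.09 and 0.12. Mapk7, the gene of the kinase ERK5, was at 0.09 (adjusted p = 0.349), and Cop1, a ubiquitin ligase gene whose product marks JUN for breakdown, at -0.09 (adjusted p = 0.398). Of the 20, Rps6ka5 and Mapk7 had an unadjusted limma p under 0.05, against 12.9% of all genes.

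Of 23 other immediate early genes tested, 20 had a change above 0, against 55.1% of all genes, with a median of 0.09. Of the 23, 1 rose and 1 fell, where 1.16% of all genes were called higher and 0.372% lower. Dusp1, a phosphatase gene that switches MAP kinases off and is induced with Fos, read 9.29, 9.70, 9.37, 9.30 and 9.36 in antisense arrays, against 8.95, 9.23, 9.10, 9.03 and 9.02 in scrambled arrays. All antisense arrays lay above all scrambled arrays, and Dusp1 rose by 0.34 (SE 0.077, a 1.27-fold difference, limma adjusted p = 0.0494). Klf4, a zinc finger gene of epithelial differentiation and pluripotency, read 10.54, 10.34, 10.43, 10.53 and 10.57 in antisense arrays, against 10.83, 10.62, 10.76, 10.78 and 11.01 in scrambled arrays. It fell by 0.32 on the log2 scale (SE 0.068, limma adjusted p = 0.0361), and its second probe set was at -0.25.

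Neither call held throughout when single arrays were dropped. The limma adjusted p of Dusp1 then ranged from 0.0390 to 0.112 and was above 0.05 without antisense replicate 3, 4 or 5 or scrambled replicate 1, 3, 4 or 5. It was also above 0.05 after quantile normalization (0.0508), after median centring (0.0519) and with no filter (0.0685). That of Klf4 ranged from 0.0215 to 0.0947 and was at or under 0.05 only without scrambled replicate 2, and with no filter it was 0.0546. With the replicate block both passed (0.00707 for Dusp1 and 0.00806 for Klf4), as did 3 more that rose: Ccn1, an extracellular matrix protein gene (0.38, adjusted p = 0.0181), the polo-like kinase gene Plk2 (0.24, adjusted p = 0.0163) and Ier5 (0.16, adjusted p = 0.0492). Other Ccn1 probe sets were at 0.41, 0.19 and 0.18, whereas the other Ier5 probe sets above the filter were both at -0.03, so the Ier5 value rests on 1 probe set. For Dusp1, Ccn1 and Plk2, as for Fosl1, replicate 2 was the highest and replicate 1 the lowest array of both groups.

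**Figure D3:**
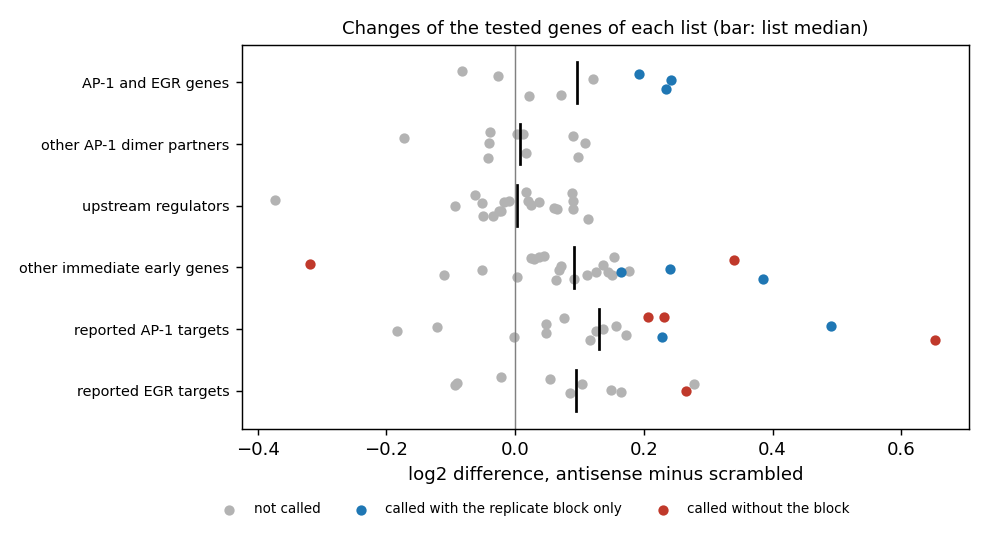
Log2 difference, antisense minus scrambled, of every tested gene in 6 lists (1 point a gene; black bar, list median). Red points passed without the replicate block and blue points with the block only; the medians of the AP-1 and EGR genes (0.10), the other immediate early genes (0.09), the reported AP-1 targets (0.13) and the reported EGR targets (0.09) lie right of 0, and those of the dimer partners (0.01) and upstream regulators (0.00329) lie close to 0.

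Of 16 reported AP-1 targets tested, 13 had a change above 0, against 55.1% of all genes, with a median of 0.13. Of the 20 listed, 18 had a probe set. Csf2, Cd44 and Lif rose, 3 of 16, where 1.16% of all genes were called higher, and 0 were called lower. The 3 with a change below 0 were Nqo1 (-0.18, limma adjusted p = 0.358), Mmp13 (-0.12, 0.344) and Mmp9 (-0.002, 0.993). Nqo1 and Mmp13 had an unadjusted limma p of 0.041 and 0.038. The list was chosen with earlier results of these data known, the rise of Csf2 among them, so its counts are no independent evidence. Csf2, which encodes the cytokine GM-CSF, read 6.03, 5.82, 6.07, 6.05 and 6.08 in antisense arrays, against 5.25, 5.57, 5.37, 5.37 and 5.21 in scrambled arrays. The groups lay wholly apart, and Csf2 rose 1.57-fold (log2 change 0.65, SE 0.070, limma adjusted p = 0.000804). It passed with any 1 array left out. With the replicate block it passed too, with a larger SE (0.082) and a limma adjusted p of 0.00862. Replicate 2 was the lowest antisense array and the highest scrambled array for Csf2. The Csf2 value rests on 1 probe set, whose mean of 5.68 lay under the 60% filter level of 5.988.

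Cd44, a hyaluronan receptor gene, read 11.54, 11.49, 11.55, 11.61 and 11.48 in antisense arrays, against 11.33, 11.33, 11.33, 11.30 and 11.36 in scrambled arrays. It rose by 0.21 (SE 0.037, limma adjusted p = 0.0165), missed the threshold without antisense replicate 3 (0.0550), and had other probe sets above the filter at 0.15 and 0.22. Lif, a cytokine gene of the interleukin 6 family, read 7.66, 7.83, 7.76, 7.73 and 7.76 in antisense arrays, against 7.58, 7.63, 7.54, 7.45 and 7.39 in scrambled arrays. All antisense values lay above all scrambled values, and Lif rose by 0.23 (SE 0.052, limma adjusted p = 0.0457), with an adjusted p of 0.0376 to 0.112 when 1 array was left out. Its second probe set lay under the filter at 3.49 and had a change of -0.096. The Lif call was kept without antisense replicate 1 or scrambled replicate 2 and lost without any other single array, after median centring (0.0651) and with no filter (0.0728). With the replicate block Cd44 (limma adjusted p = 0.0300) and Lif (0.0394) were still called. The prostaglandin synthase gene Ptgs2 (0.49, adjusted p = 0.0291) and the metalloproteinase inhibitor gene Timp1 (0.23, adjusted p = 0.0134) rose with the block too. Ptgs2 read 8.98, 9.63, 8.98, 9.12 and 9.03 in antisense arrays and 8.27, 8.78, 8.72, 8.78 and 8.74 in scrambled arrays. Its change was 0.37 without antisense replicate 2, the highest array, and the second Ptgs2 probe set was at 0.28.

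Of 10 reported EGR targets tested, 7 had a change above 0, a share near the 55.1% of all genes, with a median of 0.09, and 1 rose, where 1.16% of all genes were called higher. F3, the gene of tissue factor, which starts blood clotting, read 9.69, 9.60, 9.67, 9.62 and 9.64 in antisense arrays, against 9.35, 9.39, 9.41, 9.30 and 9.43 in scrambled arrays. The groups did not overlap, and both were tight, with SDs of 0.035 in antisense and 0.052 in scrambled arrays. F3 rose by 0.27 (SE 0.038, a 1.20-fold difference, limma adjusted p = 0.00465), and its adjusted p stayed between 0.00623 and 0.0198 with any 1 array left out. With the replicate block the limma adjusted p of F3 was 0.0106. The F3 value rests on 1 probe set.

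**Figure D4:**
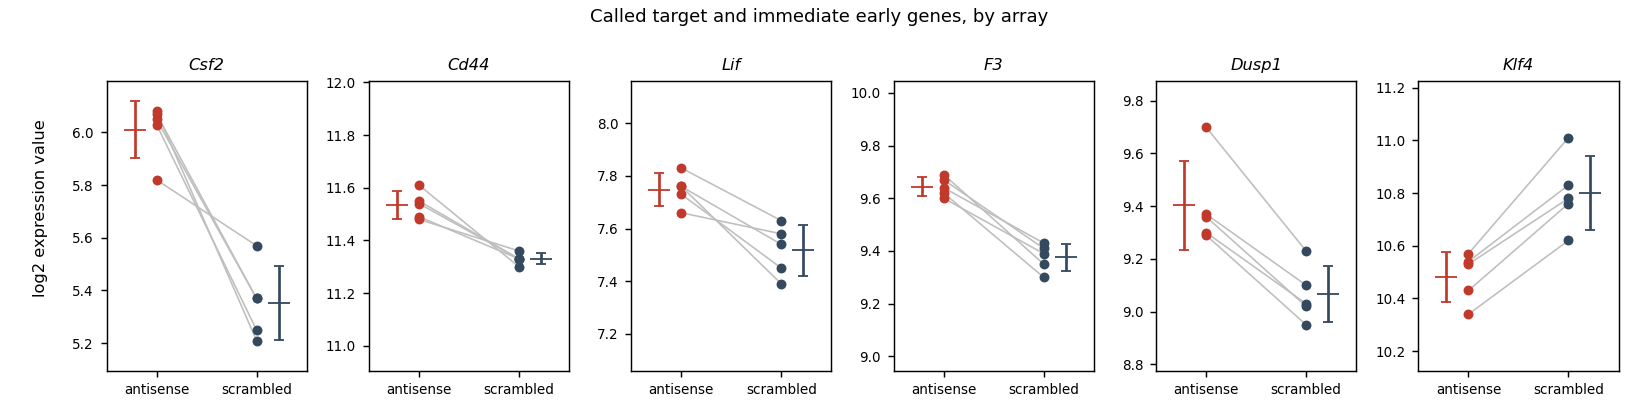
Log2 expression value of the called genes Csf2, Cd44, Lif, F3, Dusp1 and Klf4 in miR-30a antisense arrays (red, left) and scrambled arrays (dark, right), with grey lines between arrays of the same replicate number and bars for the mean and SD of 5 arrays. In all 6 panels, which span 1.1 log2 units each, the groups do not overlap, and Klf4 is the one that is lower in antisense arrays. The genes were chosen because they were called on these same arrays, so their separation is no independent evidence. Of all tested genes, 3.92% had groups free of overlap.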

How the data were processed

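Per the labels' protocols, RNA of 10 BMEL samples was isolated with the mirVana kit and biotinylated during MessageAmp Premier amplification. The authors deposited a log2 value for each probe set on each array; the log base was read from their maximum of 14.1827, above the 11.09 a natural log would allow. How the authors summarised and normalized the arrays is not given in the sources used here. The values were used as deposited. Depth does not apply to arrays; their number limits the precision.

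Probe sets were named from the platform annotation, with symbols updated through gene identifiers; 932 with several symbols were left out. The test was two-sided, with lmFit and eBayes of limma 3.58.1 (R 4.3.3) and Benjamini-Hochberg adjustment over 12633 genes. Probe sets under the filter and second probe sets were taken from a fit of all 34945 probe sets with 1 symbol. Figures used matplotlib 3.10.9. The procedure was run on simulated data with independent noise and no deviation shared by replicate number, so that run cannot show whether the block suits these arrays. Its pass mark for recovery was set at a change larger than that of any member. The members and lists were chosen with earlier results of these data known. All members were named, and of each list the called genes (at most 8) or else the 3 with the smallest p, and the 5 genes most like the members' mean; genes called with the block only were added after their values were seen.

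Same-numbered arrays of the groups deviated from their group means with correlations of 0.172, 0.377, 0.112, 0.152 and 0.335 over 12633 genes, so the numbers were taken as pairing the samples, on the values alone. Some arrays of unlike number were as close: antisense 3 correlated with scrambled 1 at 0.231, above its 0.112 with scrambled 3, and antisense 2 with scrambled 3 at 0.195, 1 with 5 at 0.162 and 4 with 5 at 0.119. The log2 ratio of 3′ to 5′ signal of 5 control transcripts averaged 0.538 in antisense and 0.545 in scrambled arrays (two-sided exact permutation p = 0.857).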

Additional observations from a re-analysis of the deposited data

Results flagged for a closer look

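In 30 groups of 5 arrays, 2 for each member probe set, 3 held an array far from the other 4; chance flags about 1 group in 20. The second Fosl1 probe set read 8.16 in antisense replicate 2, with the other antisense arrays from 7.84 to 7.87. Junb read 9.58 in antisense replicate 4, with the others from 9.88 to 9.99, and its scrambled replicate 4 was the lowest of its group too. Egr1 read 7.37 in antisense replicate 2, with the others from 7.68 to 7.75, and its scrambled replicate 2 was the lowest of its group too. Without antisense replicate 4 the change of Junb was 0.26 (limma adjusted p = 0.137).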

How the results depend on the processing

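The alternatives were the replicate block, quantile normalization, median centring, no filter or a 60% filter, the mean of a gene's probe sets, a test of each probe set, limma-trend, array weights and leaving out each array. Member calls numbered 0 without the block, 3 with the replicate block (changes of 0.23 for Fosl1, 0.19 for Junb and 0.24 for Egr1), 1 with array weights (Egr1, 0.30) and 0 under each other alternative. With the block and 1 pair left out, an alternative chosen after seeing the data, 0 to 2 members passed. No member probe set passed in the fit of all probe sets, with or without the block. Calls over all genes were 193, and 385 with the block, 117 with each probe set tested, 314 with limma-trend, 344 with array weights and 92 to 201 with 1 array left out (95, 92 and 123 without antisense replicates 3, 4 and 5, 101 without scrambled replicate 3). The other immediate early genes had 2 calls, 5 with the block, 1 with median centring, 0 without a filter or with each probe set tested, and 0 to 2 with 1 array left out. The AP-1 targets had 3 calls, 5 with the block and 1 to 4 with 1 array left out (1 without antisense replicate 3). Their calls were 4 with limma-trend or array weights, and 2 with median centring, no filter or each probe set tested. They were also 2 with the 60% filter, which left Csf2 out. The EGR targets had 1 call, 2 with the 60% filter (F3 and Pdgfa), 2 with limma-trend, 3 with array weights and 1 to 2 with 1 array left out (2 without antisense replicate 1 or 2). The change of Jun was -0.029 with the mean of its probe sets, -0.025 with array weights and -0.058 to 0.083 with 1 array left out. That of Ier2 was -0.055 to 0.00138, the last without antisense replicate 4. No cause of these differences was tested. Few arrays limit what can be told apart at changes this small.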
